A study of Mus musculus with 36 samples.

Results

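Cytoplasmic ribosomal protein genes encode the protein part of the ribosome that translates nuclear mRNA. The genes described here were taken from a table of 52636 genes by symbol alone, as Rps, Rpl or Rplp followed by a number, or Rpsa, with pseudogenes and the S6 kinases left out. Of 87 symbols of that form, 4 were annotated as pseudogenes (Rps4l, Rps12l1, Rpl6l and Rpl32l), which left 83 genes. They comprised 31 genes of the small subunit, 43 of the large subunit, 3 of the stalk of the large subunit, together the 77 canonical genes, and 6 paralogs with an l or l1 ending (Rpl3l, Rpl7l1, Rpl10l, Rpl22l1, Rpl39l and Rps27l). Fau, which encodes a ribosomal protein fused to a ubiquitin-like protein, has another kind of name and was outside the rule.

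RNA from a punch of the anterior cingulate cortex (aCC) was sequenced for 36 female mice, aged 8 to 11 weeks by the series description. The mice were wild type (WT) or Brd1+/-, heterozygous for a targeted deletion in Brd1, which encodes a scaffold protein of histone acetyltransferase complexes, and both genotypes were of the strain labelled C57BL/6NTac-Brd1. Mice were injected either with saline, called vehicle, or with 10 mg/kg of imipramine (IMN), an antidepressant of the tricyclic class. The WT mice comprised 8 given vehicle and 10 given IMN, and the Brd1+/- mice 9 of each. Every comparison with a common group shares the libraries of that group.

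A ribosome holds a single copy of nearly every one of these proteins, assembled on ribosomal RNA in the nucleolus into a small subunit, which decodes the mRNA, and a large subunit, which joins the amino acids. Their mRNAs begin with a cytosine followed by a run of pyrimidines, the terminal oligopyrimidine tract, through which the mTOR pathway and the protein Larp1 adjust their translation together. In neurons, local protein synthesis in dendrites and axons is one of the processes that depend on ribosome supply.

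To show the start of these genes in sequence, the letters CTTTCC were searched on the gene strand in a window of 30 bases around each RefSeq transcription start (10 bases before it and 20 from it, build GRCm38.p6). The RefSeq table held 63 of the 83 genes, and 10 of them (15.9%) had these letters in the window, against 412 of 27025 genes in all (1.52%). On the opposite strand the letters stood in 0 of the 63 and in 409 of the 27025 (1.51%). The 10 genes were Rps27, Rpl35, Rps10, Rpl38, Rpl13a, Rpl28, Rpl18, Rpl15, Rpl35a and Rpl39l. The windows of Rps27, Rpl35 and Rpl13a are printed because these genes return in the results, and that of Rpl39l because it was listed at 0 in every library. Capitals mark the match. With the first transcribed base as 1, its first letter lay at 2 in Rps27, -5 in Rpl35, 10 in Rpl13a and -6 in Rpl39l. In Rpl39l the match ended before the start.
Rps27 (chr3:90213629-90213658, minus strand): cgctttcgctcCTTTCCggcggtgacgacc
Rpl35 (chr2:39005112-39005141, minus strand): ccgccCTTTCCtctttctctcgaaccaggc
Rpl13a (chr7:45128726-45128755, minus strand): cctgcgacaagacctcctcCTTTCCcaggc
Rpl39l (chr16:10170218-10170247, plus strand): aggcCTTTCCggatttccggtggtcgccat
A match of letters is a description of these windows and does not show a functional tract. Genes without the letters may hold other pyrimidine runs, which were not searched.

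Brd1 itself was read first as a check of the genotype labels. Its level ran from 22.6 to 31.9 TPM (transcript abundance scaled by transcript length and library) in WT vehicle libraries (median 26.1), and from 13.8 to 20.9 TPM in Brd1+/- vehicle libraries (median 16.0), with no overlap. It ran from 17.9 to 27.8 TPM in WT IMN (median 24.0) and from 13.5 to 19.4 TPM in Brd1+/- IMN (median 17.3). Over both treatments Brd1 fell by 0.54 (SE 0.07) on the log2 scale in Brd1+/- (limma, adjusted p = 2.8e-05), and it was the 1 gene of 25572 tested that passed in that comparison. It did not pass adjustment in either comparison of 2 groups, at -0.64 under vehicle (limma adjusted p = 0.062) and -0.45 under IMN (limma adjusted p = 0.882), so a change of that size could go uncalled there.

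Libraries differed in cell type markers within each group. The 6 cortical neuron markers summed to between 683 and 2071 TPM and none of them was at 0 in any library. Brd1+/- vehicle replicate 7 had the lowest of these sums. The 10 oligodendrocyte markers summed to 192 to 2841 TPM in WT vehicle, 240 to 1800 in Brd1+/- vehicle, 233 to 3570 in WT IMN and 230 to 3445 TPM in Brd1+/- IMN, with the highest value in WT IMN replicate 7. Brd1+/- vehicle replicate 6 stood apart by striatal markers (1470 TPM, against at most 396 TPM in any other library) and choroid plexus markers (3904 TPM). Mitochondrially encoded genes took 21.7% to 30.5% of all TPM. In bulk tissue, fewer cells of a type and less RNA per cell cannot be told apart.

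Ribosomal protein genes were among the more abundant transcripts of the aCC. TPM are scaled by transcript length, so that levels can be set side by side between genes. The median level over the 36 libraries of a canonical gene ran from 22.4 TPM (Rpl29) to 639 TPM (Rplp1), a 28.5-fold range, with a median of 115 TPM and an interquartile range of 80.5 to 162 TPM. The level exceeded 100 TPM for 47 of the 77. The genes of the small subunit had a median level of 115 TPM and those of the large subunit and stalk of 111 TPM.

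The most abundant transcript was Rplp1, an acidic protein of the stalk that recruits elongation factors, at 459 to 960 TPM. Rps15, a protein of the head of the small subunit, followed at 422 to 830 TPM (median 551). Rpl4, whose protein reaches into the exit tunnel for the growing peptide, was at 384 to 483 TPM (median 418) and varied less than any of the other 4 of the highest genes, with an SD of 0.08 on the log2 scale. Rpl13a, which can leave the ribosome to silence translation of inflammatory mRNAs, was at 355 to 593 TPM (median 393), and Rpl8 at 268 to 459 TPM (median 324). The ranges of Rplp1 and Rps15 overlapped, as did those of Rpl4 and Rpl13a, so that the order of these neighbours was not fixed from library to library. The other stalk genes were lower than Rplp1: Rplp2 had a median of 162 TPM, and Rplp0, the protein that anchors the stalk to the large subunit, a median of 116 TPM. The fusion gene Rps27a, which yields ubiquitin together with a ribosomal protein, had a median of 70.9 TPM, against 182 TPM for Fau.

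The order of the 77 canonical genes by level was nearly the same in the 4 groups, with a Spearman correlation of at least 0.990 between any pair of group means. The genes are points in that correlation and share libraries, so it is a description. The SD of a canonical gene over the 36 libraries had a median of 0.20 on the log2 scale, beside 0.21 for the 10076 genes that averaged 10 TPM or more.

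**Figure D1:**
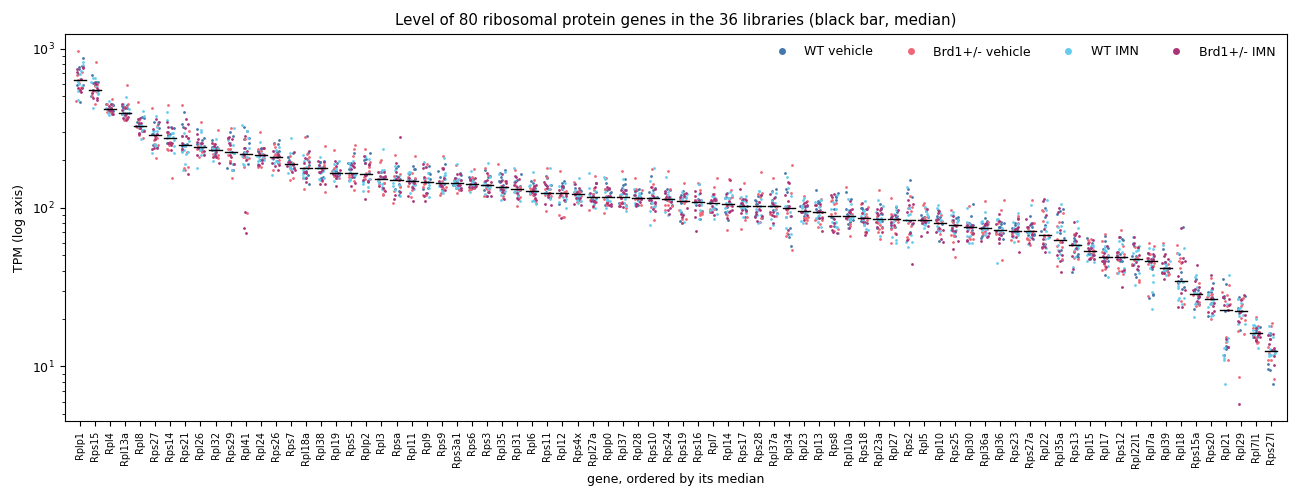
TPM on a log axis for the 80 ribosomal protein genes with a median above 0, ordered by median (black bar), with 1 point per library coloured by group. Levels run from 639 TPM for Rplp1 to 12.6 TPM for Rps27l, and 4 Brd1+/- libraries lie far below the rest for Rpl41.

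The 6 paralogs ranged from genes listed at 0 to genes at levels like those of their partners. Rpl10l and Rpl39l, known from testis, were listed at 0 in all 36 libraries, while the X-linked genes they derive from, Rpl10 and Rpl39, had medians of 80.5 and 41.7 TPM. Rpl3l, known from heart and skeletal muscle, was above 0 in 6 of the 36 libraries and reached 0.434 TPM, beside a median of 152 TPM for Rpl3. These 3 genes did not pass the filter of at least 0.1 TPM in at least 8 libraries, and the other 80 were tested. Rps27l, a p53-responsive relative of Rps27, was at 7.74 to 18.8 TPM and made up 4.47% of the pair at the median. Rpl7l1, whose protein is found in precursors of the large subunit, was at 13.2 to 20.4 TPM and made up 13.4% of its pair with Rpl7. Rpl36al, outside the rule, made up 54.4% of its pair with the X-linked Rpl36a.

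Of the 6 paralogs under the rule, Rpl22l1 was the closest in level to its partner. It was at 32.7 to 65.6 TPM (median 47.6) and Rpl22 at 52.7 to 113 TPM (median 66.8), so that Rpl22l1 made up 26.1% to 55.4% of the pair, with a median of 40.1%. Its share was 39.3% ± 3.63 (SD, n = 8) in WT vehicle, 38.2% ± 6.58 (n = 9) in Brd1+/- vehicle, 41.2% ± 7.01 (n = 10) in WT IMN and 41.7% ± 8.29 (n = 9) in Brd1+/- IMN, and the groups overlapped throughout. Rpl22 protein is known to repress Rpl22l1 by binding its mRNA. Over the 36 libraries the Pearson r between the log2 values of the pair was 0.08, beside 0.68 for Rps27 with Rps27l, 0.45 for Rpl36a with Rpl36al and 0.24 for Rpl7 with Rpl7l1. These correlations share libraries and the TPM denominator.

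Processed pseudogenes copied from these mRNAs carry nearly the same sequence, and how reads matching several of them were assigned is not stated. The table held 289 genes with the symbol of a member followed by -ps, a few of which are annotated as protein coding. Together they took 0.487% of all TPM, 184 had a median of at least 1 TPM and 29 were at 0 in every library. Rpsa-ps10 was listed at a median of 124 TPM beside 150 TPM for Rpsa, Rpl14-ps1 at 123 TPM beside 106 TPM for Rpl14, and Rps24-ps3 at 120 TPM beside 113 TPM for Rps24. The level of a single member is uncertain to that extent.

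All 83 genes together took 1.15% ± 0.0950 (SD, n = 8) of the TPM in WT vehicle, 1.10% ± 0.173 (n = 9) in Brd1+/- vehicle, 1.11% ± 0.122 (n = 10) in WT IMN and 1.09% ± 0.0969 (n = 9) in Brd1+/- IMN. The shares ran from 1.03% to 1.32% in WT vehicle, from 0.901% to 1.51% in Brd1+/- vehicle, from 0.935% to 1.37% in WT IMN and from 0.979% to 1.23% in Brd1+/- IMN. The groups overlapped over most of their ranges, and the means differed by less than the SD within a group. Brd1+/- vehicle held both the lowest library (replicate 2) and the highest (replicate 7), and without replicate 7 its mean was 1.05%. The share of the small subunit divided by that of the large subunit and stalk was 0.685 ± 0.0200 (SD, n = 36), so that the balance of the subunits varied much less between libraries than their total.

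**Figure D2:**
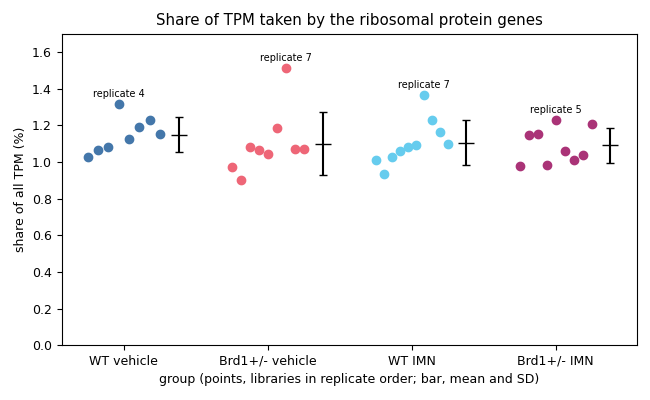
Share of all TPM (percent) taken by the 83 genes in each library, by group, with the mean and SD beside the points and the highest library of each group labelled. The groups overlap, and replicate 7 of Brd1+/- vehicle (1.51%) and replicate 7 of WT IMN (1.37%) are the highest of the 36.

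The canonical genes varied together from library to library. Each library was taken as a separate mouse, so differences between mice and between library preparations cannot be told apart. Over the 36 libraries the Pearson r of log2(TPM + 0.5) between pairs of the 77 genes had a median of 0.518 and 96.1% of pairs were above 0. The first principal component held 53.5% of their variance. Each gene's r with the mean of the other 76 had a median of 0.751, and 62 genes were above 0.5. All points share a library and its TPM denominator, so these values carry no test, and the same measure over other genes shows the level to read them against. The median over all 10076 genes averaging 10 TPM or more was 0.08, and between canonical genes and those other genes it was 0.06.

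Other lists of the translation machinery showed weaker co-variation, but they were not matched for level. Over libraries the mean log2 level of the full lists ran from 4.49 to 4.86 for mTOR and 4.63 to 5.02 for biogenesis. It ran from 4.64 to 5.14 for mitochondrial ribosomal proteins and 6.69 to 7.09 for translation factors, beside 6.56 to 7.24 for the canonical genes. The part of level in these correlations was not tested. The median pair r was 0.209 for 18 translation factors and related genes with oligopyrimidine tracts, 0.131 for 19 ribosome biogenesis genes, 0.128 for 15 mTOR pathway genes and 0.270 for 73 mitochondrial ribosomal protein genes. It was 0.488 for 74 nuclear genes of the respiratory chain, close to that of the ribosomal proteins. Within the ribosome it was 0.562 for the small subunit and 0.474 for the large subunit. With group means removed the value for the 77 genes was 0.536. It was 0.50 after median-ratio scaling, 0.472 after quantile normalization and 0.482 with mitochondrially encoded genes removed from the total. After median-ratio scaling the respiratory chain was at 0.520, above the ribosomal proteins, and the translation factors, biogenesis and mTOR lists were at 0.097, 0.0039 and -0.0071. Without Brd1+/- vehicle replicate 7 the value for the 77 genes was 0.452, the lowest value on leaving out any single library.

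Rpl8, a protein near the peptidyl transferase centre, followed the others most closely (r with the mean of the rest 0.955), then Rpl37 (0.914) and Rps3 (0.912), which lies at the mRNA entry. At the other end stood Rpl22 (r = 0.01), Rpl29 (r = 0.09) and Rpl21 (r = 0.10), all of the large subunit, and next to them Rpl41 (r = 0.19). With pseudogenes summed into the members, 73 of the 77 genes had an r above 0.5, in place of 62, and the lowest was 0.04. The part of read assignment in the low values was not tested. In the stalk, Rplp0 and Rplp1 had an r of 0.84, while Rplp2 had an r of 0.45 with Rplp0 and 0.35 with Rplp1. Among 9034 genes outside the rule, without a pseudogene biotype and averaging 10 TPM or more, the 5 closest to the mean of the canonical genes were Rps27rt (r = 0.935), Gm10073 (0.930), Rpl9-ps6 (0.907), Gm2000 (0.905) and Rack1 (0.897). The first 4 are annotated as protein coding with 374 to 714 exon bases, and the names of Rps27rt and Rpl9-ps6 mark them as copies of members, with which they may share reads. Rack1 encodes a scaffold protein that sits on the small subunit.

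**Figure D3:**
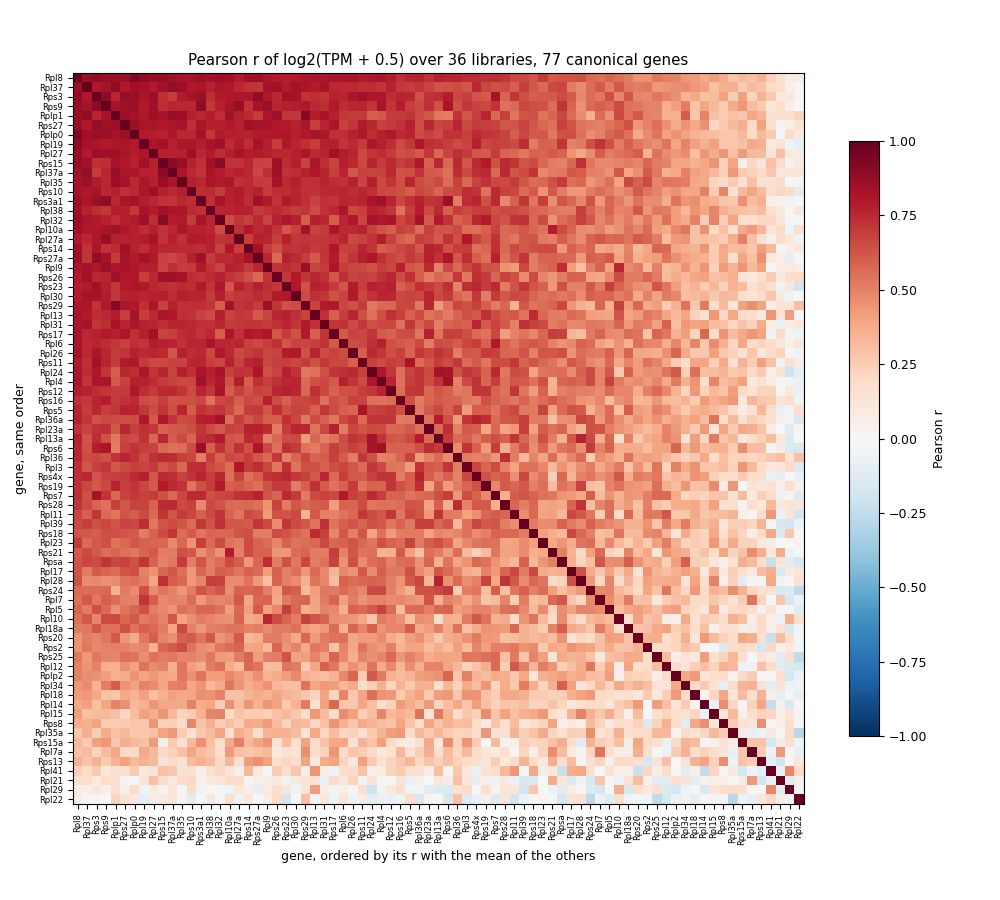
Pearson r of log2(TPM + 0.5) over the 36 libraries between each pair of the 77 canonical genes (colour scale from -1 to 1), ordered by r with the mean of the others. The block of high r fades towards Rpl41, Rpl21, Rpl29 and Rpl22 at the lower right, whose r with the rest is 0.19 or less.

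Some measures of the libraries moved with the mean of the canonical genes, and their part in the co-variation was not tested. The mean log2 level of the translation factors had an r of 0.79 with it, that of mitochondrial ribosomal proteins 0.67 and that of the nuclear respiratory chain 0.46. The share of mitochondrially encoded transcripts had an r of -0.44, which became -0.11 after median-ratio scaling. The cortical neuron markers had an r of -0.16 (-0.40 after that scaling), microglia markers 0.36 and oligodendrocyte markers 0.08. Across the 10076 genes, the log2 exon length had an r of -0.52 with a gene's correlation to the canonical mean, and canonical genes had a median exon length of 1781 bases beside 4275 bases for the 10076.

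The first comparison asked what loss of a Brd1 allele does without drug. No member passed an adjusted p of 0.05 in Brd1+/- vehicle against WT vehicle (limma), where 0% of all 25572 genes did. At an unadjusted p under 0.05, 0 of the 80 members were higher and 2 lower, beside 1.22% and 2.53% of all genes (3.75% in either direction). The median log2 fold change of the members was -0.05, beside -0.02 over all genes, and 65 of the 80 had an estimate below 0 (56 after median-ratio scaling). Members vary together between libraries, so their directions are not separate observations. In the same comparison 10 of 10 oligodendrocyte markers (median 0.33) and 9 of 10 striatal markers (median 0.47) had estimates above 0, none past adjustment. Striatal markers summed to 1470 TPM in Brd1+/- vehicle replicate 6 and to 176 to 238 TPM in the other libraries of that group. In WT vehicle they summed to 149 to 301 TPM. The part of both marker lists in the members' values was not tested. In the subunits, 28 of 31 small subunit genes, 32 of 43 large subunit genes and all 3 stalk genes were below 0. Without Brd1+/- vehicle replicate 7, which had the highest share of these transcripts and the lowest cortical neuron markers, 73 of 80 were below 0, the median was -0.11 and 17 were lower at an unadjusted p under 0.05, beside 3.19% of all genes lower in that refit. Without Brd1+/- vehicle replicate 2 those numbers were 53, -0.03 and 2, beside 2.27% of all genes lower. No member passed adjustment without either library.

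Rpl41 and Rpl13 were the members with the smallest p. Rpl41, the shortest protein of the ribosome, ran from 189 to 322 TPM in WT vehicle (median 264) and from 91.8 to 270 TPM in Brd1+/- vehicle (median 209). Its log2 fold change was -0.40 (SE 0.16, 95% CI -0.74 to -0.07, limma adjusted p = 1.00). Rpl13, of the large subunit, ran from 86.0 to 129 TPM in WT vehicle (median 102) and from 76.0 to 113 TPM in Brd1+/- vehicle (median 85), a log2 fold change of -0.21 (SE 0.09, adjusted p = 1.00). Both genes overlapped between the groups. Rps7, a small subunit gene mutated in Diamond-Blackfan anaemia, came next with a log2 fold change of -0.14 (95% CI -0.28 to 0.01).

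The same question was asked under imipramine. In Brd1+/- IMN against WT IMN no member passed adjustment, nor did any other gene (0% of all genes), and at an unadjusted p under 0.05 the count was 0 higher and 1 lower of 80, beside 1.97% and 1.26% of all genes (3.23% in either direction). The median was -0.02, beside 0.0052 over all genes. Estimates below 0 numbered 53 of 80, but 40 after quantile normalization, 44 with mitochondrially encoded genes removed, 31 with striatal and oligodendrocyte scores as covariates and 29 without WT IMN replicate 7, so no direction held across these settings. Rpl41 again had the smallest p. It ran from 186 to 330 TPM in WT IMN (median 223) and from 69.6 to 280 TPM in Brd1+/- IMN (median 215), with a log2 fold change of -0.55 (95% CI -1.06 to -0.04, limma adjusted p = 1.00). Rps25, which internal ribosome entry sites use, had a log2 fold change of -0.15 and Rps21 of 0.23, with intervals that included 0.

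Rpl41 had the widest gap between libraries of any canonical gene. It lay between 69.6 and 94.4 TPM in 4 libraries and at 179 TPM or more in the other 32. The 4 were replicates 3 (69.6 TPM), 5 (94.4 TPM) and 8 (74.9 TPM) of Brd1+/- IMN and replicate 9 of Brd1+/- vehicle (91.8 TPM), while the lowest of the WT libraries was at 186 TPM. The reads and transcript models behind the 4 low values were not examined here. The fold changes of Rpl41 rest at least in part on these values, and no fit without all 4 libraries was run. In Brd1+/- IMN, with 3 such libraries, the mean was 179 TPM and the median 215 TPM, beside a mean of 238 TPM and a median of 223 TPM in WT IMN. Rpl29 showed a like gap, at 5.83 TPM in Brd1+/- IMN replicate 8 and 8.59 TPM in Brd1+/- vehicle replicate 7, and at 16.0 TPM or more elsewhere. Rpl21 fell on both sides of a gap between 15.4 and 22.5 TPM, with 16 libraries below and 20 above. Both sides held libraries of both genotypes, but more of WT IMN than of any other group lay below. In WT IMN against WT vehicle Rpl21 had a log2 fold change of -0.46, the lowest of the canonical genes there. The part of the gap in it was not tested.

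In the estimate over both treatments, Rpl41 had a log2 fold change of -0.48 in Brd1+/- (SE 0.15, 95% CI -0.79 to -0.17), the smallest unadjusted p of any member in any of the 7 comparisons (limma, 0.0033), and an adjusted p of 1.00. Leaving out each library in turn gave -0.53 to -0.40, which cannot show how far the estimate rests on the 4 low libraries together. In that comparison 0 members passed adjustment, beside 0.00391% of all genes. At an unadjusted p under 0.05, 1 member was higher (Rpl7a of the large subunit, log2 fold change 0.24, 95% CI 0.02 to 0.45) and 2 were lower (Rpl41, and Rps25 at -0.14, 95% CI -0.28 to -0.01), beside 1.69% and 1.94% of all genes (3.62% in either direction). The median was -0.03, beside -0.0050 over all genes, and 62 of 80 were below 0 (50 after quantile normalization).

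**Figure D4:**
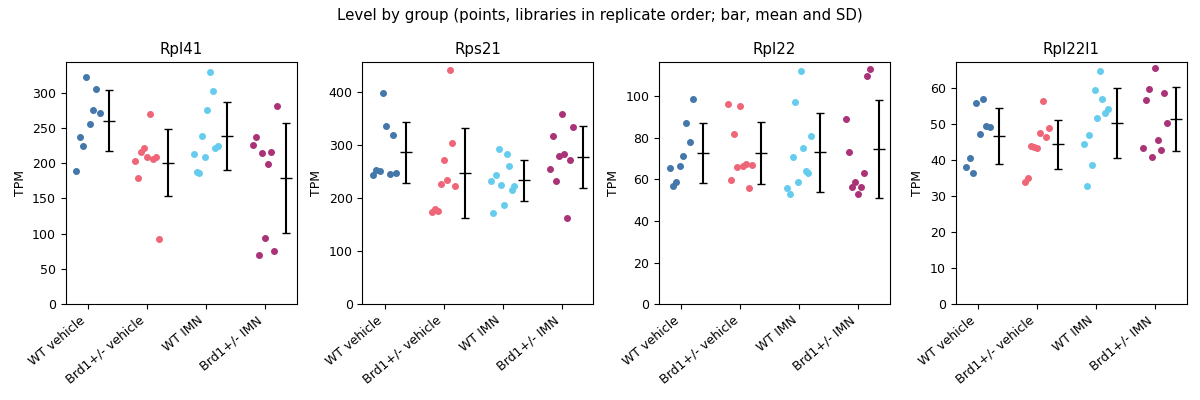
TPM by group for Rpl41, Rps21, Rpl22 and Rpl22l1, each point a library, with the mean and SD beside the points. Rpl41 has 4 Brd1+/- libraries between 69.6 and 94.4 TPM, Rps21 has its highest value (442 TPM) in Brd1+/- vehicle replicate 7, and the groups overlap for all 4 genes.

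The next comparisons asked what imipramine does within each genotype. In Brd1+/- IMN against Brd1+/- vehicle no member passed adjustment (limma), beside 0.00782% of all genes, and at an unadjusted p under 0.05 there was 1 member higher and 1 lower, beside 3.12% and 2.4% of all genes (5.52% in either direction). Rpl5, which with Rpl11 binds Mdm2 when ribosome assembly is disturbed, ran from 80.4 to 107 TPM under vehicle (median 84.0) and from 66.5 to 97.3 TPM under IMN (median 80.5), a log2 fold change of -0.16 (95% CI -0.32 to -0.0044). Rps15a ran from 24.2 to 33.8 TPM under vehicle (median 27.8) and from 25.8 to 43.4 TPM under IMN (median 30.1), a log2 fold change of 0.19 (95% CI 0.0017 to 0.37). Rpl22l1 came next, at 0.21 (95% CI -0.01 to 0.43). The median over members was -0.01 with 45 of 80 below 0, but 33 after quantile normalization, 32 with array weights and 22 without Brd1+/- vehicle replicate 7.

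In WT IMN against WT vehicle no member passed adjustment, nor did any other gene (0% of all genes), and at an unadjusted p under 0.05 there were 0 members higher and 1 lower, beside 2.03% and 4.57% of all genes (6.6% in either direction). That member was Rps21, a small protein of the small subunit, which ran from 243 to 399 TPM under vehicle (median 252) and from 173 to 293 TPM under IMN (median 228), a log2 fold change of -0.29 (SE 0.11, 95% CI -0.53 to -0.05, adjusted p = 0.693). Rps2, at the mRNA entry of the small subunit, ran from 69.9 to 149 TPM under vehicle and from 56.3 to 135 TPM under IMN, with a log2 fold change of -0.36 (95% CI -0.72 to 0.0017). Rpl35, near the exit tunnel, was at -0.15 (95% CI -0.31 to 0.01). The median was -0.03, beside -0.01 over all genes, with 56 of 80 below 0 but 40 after quantile normalization. All 10 oligodendrocyte markers had estimates above 0 in this comparison (median 0.61), none past adjustment, and their part was not tested. WT IMN replicate 7 was the library with the most oligodendrocyte transcript, and it also had the highest share of the members in its group (1.37%). Without this library, 69 members were below 0 and 12 were lower at an unadjusted p under 0.05, beside 4.88% of all genes lower. None passed adjustment in that refit.

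Whether the genotypes responded differently was tested by the interaction. No member passed adjustment, nor did any other gene (0% of all genes), and at an unadjusted p under 0.05 there was 1 member with a positive interaction and 0 with a negative, beside 2.18% and 1.02% of all genes (3.2% in either direction). It was Rps21, at 0.48 (SE 0.21, 95% CI 0.05 to 0.91, limma adjusted p = 1.00). Rps21 had run from 174 to 442 TPM in Brd1+/- vehicle (median 228) and from 162 to 360 TPM in Brd1+/- IMN (median 280), the reverse order of medians to that in WT. The highest of these values belonged to Brd1+/- vehicle replicate 7. The interaction for Rps21 ran from 0.41 to 0.59 on leaving out each library in turn. Of the members, 52 of 80 had a positive interaction, with a median of 0.04 beside 0.02 over all genes. The count was 44 after median-ratio scaling and 42 without Brd1+/- vehicle replicate 2, and it was 64 with array weights and 62 when scores of striatal and oligodendrocyte markers entered the fit.

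Over both genotypes imipramine gave the largest number of called genes in these data, 0.274% of all genes tested, and no member among them. At an unadjusted p under 0.05, 0 members were higher and 2 lower, beside 3.9% and 5.48% of all genes (9.38% in either direction). The 2 were Rpl11, at -0.13 (95% CI -0.25 to -0.01), and Rps26, a small subunit protein at the mRNA exit, at -0.11 (95% CI -0.22 to -0.0045), followed by Rps28 at -0.14 (95% CI -0.30 to 0.01). The median over members was -0.03, beside -0.0023 over all genes, and 54 of 80 were below 0 (39 after quantile normalization). In the same comparison all 8 immediate-early genes had estimates below 0 with 3 past adjustment, and all 10 oligodendrocyte markers had estimates above 0 with none past it. Their part in the members' values was not tested.

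The genes that regulate ribosome supply were listed separately. Of 19 ribosome biogenesis genes 1 was called over both genotypes under imipramine: Rrp9, a protein of a nucleolar particle that processes ribosomal RNA, fell by 0.28 (SE 0.05, limma adjusted p = 0.0044). Of 17 mTOR pathway genes 1 was called: Ddit4, a stress-induced inhibitor of mTOR complex signalling, rose by 0.49 (SE 0.08, limma adjusted p = 0.0012). Over all genes tested, 0.274% were called in that comparison. None of 18 translation factors, 78 mitochondrial ribosomal protein genes or 79 tested nuclear genes of the respiratory chain was called in any of the 7 comparisons. In the pooled imipramine comparison 1, 4 and 0 of them had an unadjusted p under 0.05, beside 9.38% of all genes. There, 3 of the 19 biogenesis genes were lower and 0 higher at that threshold, and 3 of the 17 mTOR genes were lower and 2 higher. In the other 6 comparisons no gene of the biogenesis and mTOR lists was called. In each of them 0 to 3 of each list had an unadjusted p under 0.05, beside 3.2% to 6.6% of all genes.

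How precisely changes were estimated is given by the 95% intervals of the 77 canonical genes, which are not adjusted for the number of genes tested. The median half-width was 0.21 on the log2 scale (a change of 15.4%) for Brd1+/- vehicle against WT vehicle, 0.18 (13%) for Brd1+/- IMN against WT IMN, 0.21 (15.3%) for Brd1+/- IMN against Brd1+/- vehicle and 0.18 (13.6%) for WT IMN against WT vehicle. It was 0.27 (21%) for the interaction and 0.14 (9.84% and 9.82%) for imipramine and genotype over all 36 libraries. In the 4 comparisons of groups, the interval excluded a 2-fold change in either direction for 77, 76, 77 and 76 of the 77 genes in the order above, and lay within ±0.5 for 69, 72, 71 and 71. The exceptions at 2-fold were Rpl41 in Brd1+/- IMN against WT IMN and Rpl21 in WT IMN against WT vehicle (interval from -1.05). For a typical canonical gene a change smaller than these half-widths would leave 0 inside the interval.

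**Figure D5:**
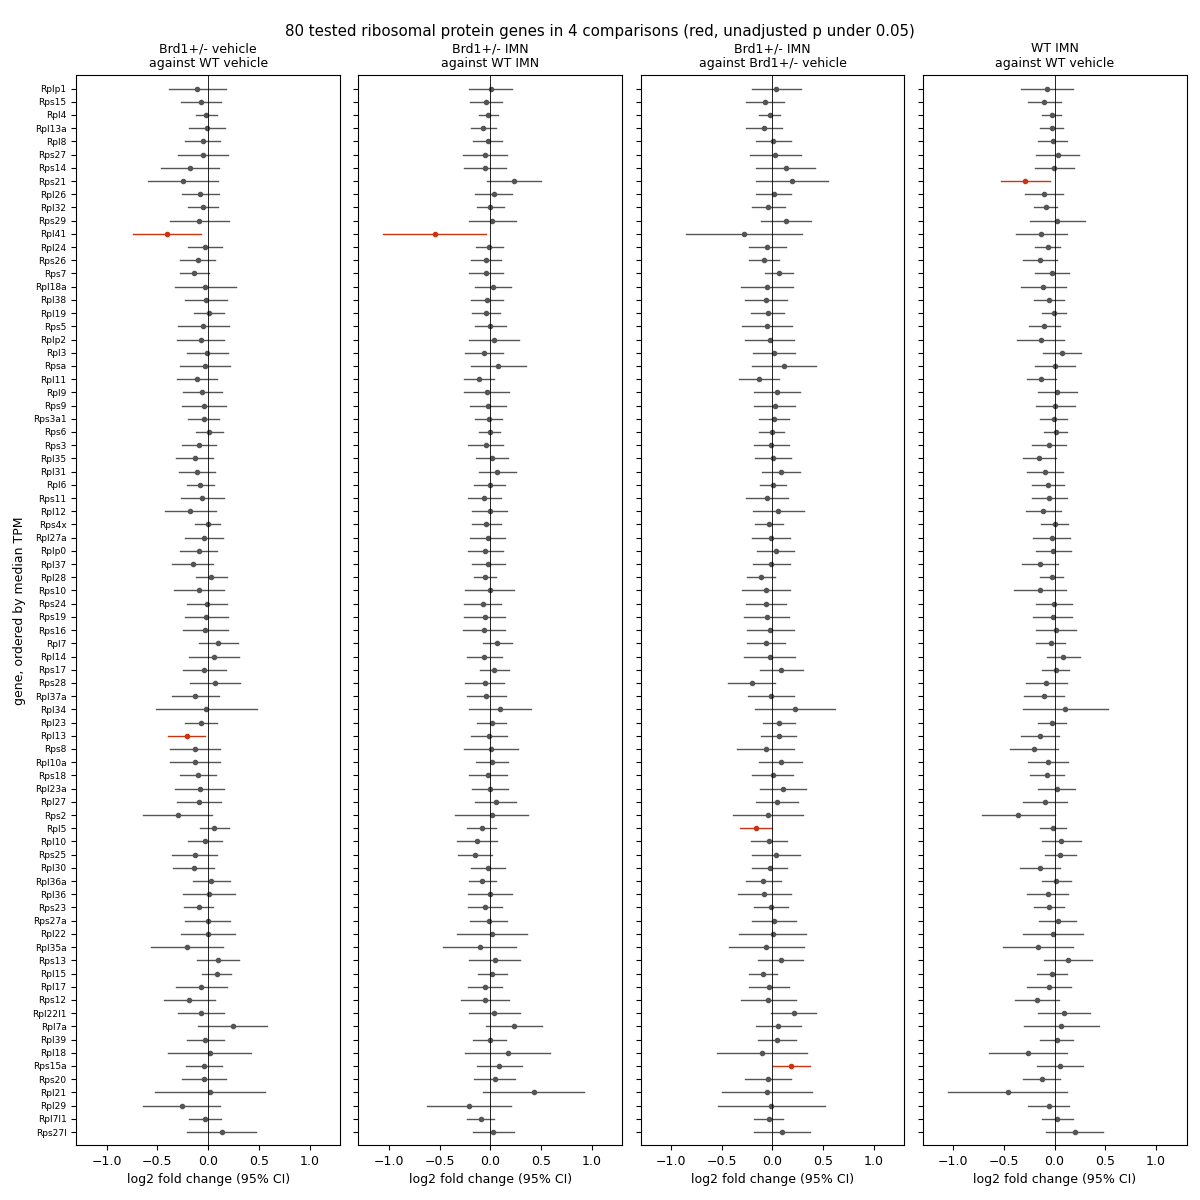
Log2 fold change (point) with its 95% confidence interval (line) for the 80 tested genes in the 4 comparisons of groups, ordered by median TPM, with an unadjusted p under 0.05 in red. The red genes are Rpl41 and Rpl13, Rpl41, Rpl5 and Rps15a, and Rps21, from the left panel to the right, and none passed adjustment.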

How the data were processed

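Per the labels, the 36 libraries carry a genotype, a treatment and a replicate number, which set the 4 groups. Each was taken as a separate mouse, and p-values measure the spread between these libraries. Single-end reads from a BGISEQ-500 were aligned to GRCm38 with HISAT2 2.1.0 and quantified per gene with StringTie 1.3.4, per the submitters' processing notes. The deposited values are TPM made by the authors, with no scaling between libraries. Strand use and the handling of reads matching several genes are not given in the sources used here. TPM keep no depth, so depth per library is unknown and errors were taken from the spread between libraries. Column totals ran from 999727 to 999889, and 0 columns were left unmatched to a sample.

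TPM were transformed as log2(TPM + 0.5). The 25572 genes reaching 0.1 TPM in 8 or more of the 36 libraries were tested with limma 3.58.1 in R 4.3.3 (empirical Bayes with trend, two-sided, Benjamini-Hochberg over all genes tested); the count test of the study needs counts, which were not used here. Fold changes understate the change of low genes. Pairwise comparisons used the libraries of their 2 groups, and the interaction and both additive fits used all 36. The procedure was tested on simulated data. Descriptions were computed in Python 3.11.15 with numpy 2.4.6 and pandas 2.3.3. Exon lengths are from a GENCODE annotation and start sites from RefSeq, both of GRCm38.

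Members and lists were chosen with earlier results of these data known. Named genes were Brd1, the 3 members with the smallest p in each comparison, the 5 highest and 5 lowest by median TPM, the 3 most and 3 least correlated with the other members, the paralog pairs, the stalk genes, Rps27a and Fau, and the 5 outside genes closest to the members' mean. A gene that the rule also names is not reported here. Rrp9 and Ddit4, and the gaps in Rpl41, Rpl29 and Rpl21, were chosen after their values were seen. Alternatives were other pseudocounts, filters and scalings, array weights, cell content covariates, pseudogenes summed into members, a replicate block, all libraries in 1 fit, and leaving out each library.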

Additional observations from a re-analysis of the deposited data

Results flagged for a closer look

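A library lying apart from the rest of its group, by Dixon's criterion at the 95% level, was sought for the members' share of TPM and for each named gene. Of 160 groups tested 23 gave such a library, where chance gives about 1 in 20, and since the members vary together these are not separate observations. Most of them were Brd1+/- vehicle replicate 7, in which the members took 1.51% of all TPM, beside 1.19% in the next library of its group. In that library Rplp1 was at 960 TPM, Rps15 at 830 TPM, Rpl13a at 593 TPM, Rpl8 at 459 TPM and Rps21 at 442 TPM. Lower genes were high in it too, with Rpl35 at 188 TPM, Rpl37 at 169.6 TPM, Rps28 at 167 TPM, Rps4x at 144 TPM, Rps27a at 111 TPM, Rpl36a at 109.9 TPM and Rpl39 at 59.6 TPM. Its cortical neuron markers summed to 683 TPM, the lowest of the 36 libraries. The part of that marker level in the members' values was not tested.

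WT IMN replicate 7 stood apart for Rps7 (273 TPM), Rpl3 (232 TPM), Rps3 (191 TPM), Rps27a (104 TPM) and Rpl39 (57.8 TPM), and its oligodendrocyte markers were the highest of the 36 libraries at 3570 TPM.

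Single genes stood apart in other libraries. Rps7 was at 223 TPM in Brd1+/- IMN replicate 5 and Rpl39 at 55.2 TPM in WT vehicle replicate 4. Rps15a was at 33.8 TPM in Brd1+/- vehicle replicate 9. Rpl29 was at 5.83 TPM in Brd1+/- IMN replicate 8, where the next library had 19.0 TPM. Rpl3l was at 0.434 TPM in WT vehicle replicate 3 and at 0 in the other 7 libraries of that group.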

How the results depend on the processing

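In each of the 7 comparisons, the count of members past an adjusted p of 0.05 was 0 with limma under every alternative that was run and on leaving out each library. The median log2 fold change of the members moved by less than the SD of their mean between libraries (0.14). That bound is wider than the medians themselves, so it does not show that their sign held. The median ran from -0.02 to 0.02 over the alternatives in Brd1+/- IMN against WT IMN. On leaving out each library it ran from -0.04 to 0.03 in Brd1+/- IMN against Brd1+/- vehicle. No gene named for its p in a comparison changed direction or passed the threshold under any alternative or on leaving out any library. With mitochondrially encoded genes removed from the total, the members took 1.52% of TPM in WT vehicle, 1.47% in Brd1+/- vehicle, 1.48% in WT IMN and 1.47% in Brd1+/- IMN. With pseudogenes summed into the members the shares were 1.65%, 1.58%, 1.59% and 1.57%, higher by the construction of those sums. The median pair r was then 0.651, beside 0.518 without the sums, and the reason for that rise was not tested. Leaving out each library gave a median pair r of 0.452 to 0.529. With array weights, 12 canonical genes, in place of 2, were lower at an unadjusted p under 0.05 in Brd1+/- vehicle against WT vehicle, beside 3.75% of all genes. The median of all genes moved by less than 0.1 on the log2 scale under each scaling.

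With the replicate number as a block (replicate block), 0 members passed in any comparison, the members' median ran from -0.06 to 0.05, and 7 members were lower and 1 higher at an unadjusted p under 0.05 in WT IMN against WT vehicle, beside 5.83% and 1.81% of all genes. Libraries of the same number did not deviate together, since 7 of 51 such pairs had a correlation over 0.1 (range -0.31 to 0.32) and in 5 of 102 cases a library correlated best with its own number. The numbers were not taken as a pairing.

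The unknown depth and the unstated handling of reads shared with pseudogenes limit the values of single members.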
